A study of Mus musculus with 24 samples.

Results

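The patatin-like phospholipase family was followed in mouse liver through 7 members with Pnpla names on the array, Pnpla1, Pnpla2, Pnpla3, Pnpla5, Pnpla6, Pnpla7 and Pnpla8. The members were chosen by name, as the probes outside the array's controls that the files assign to these genes, and each gene was read by its probe with the highest mean log2 signal over all arrays. These 7 genes stand among 21372 genes tested, and 11 probes of the array carry their names. Expression was profiled on 24 single-colour arrays, 1 per male mouse, with 6 mice in each of 4 groups. The groups cross genotype with feeding: LWT_Fed, LWT_Fasted, LKO_Fed and LKO_Fasted. LWT (p110αhep+/+) were littermates that carry floxed Pik3ca alleles and no Cre recombinase, and LKO (p110αhep-/-) carry the same floxed alleles and a Cre transgene driven by the albumin promoter. All mice were on a C57BL/6J background and 12 weeks old, were either fed ad libitum or fasted for 24 h, and were killed at ZT16, in the dark phase of a zeitgeber clock. The deletion is thus limited to cells with an active albumin promoter, which in liver are hepatocytes, and the controls share the floxed alleles but not the Cre transgene. The albumin-Cre transgene and the loss of p110α, the phosphoinositide kinase subunit that Pik3ca encodes and that acts in insulin signaling, cannot be told apart in these groups.

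Between 54.7% and 63.0% of the spots on each array were well above background, the array scanner's call that a spot exceeds its local background. No spot was saturated. Each group mean rests on 6 arrays, and the model shares 1 estimate of the spread per probe between all 4 groups. For the chosen probes of Pnpla3 and Pnpla5 the SD was 0.69 to 0.96 in fed groups and 0.07 to 0.14 in fasted ones. Their SEs thus understate the spread among fed arrays and overstate that among fasted arrays. All 6 hepatocyte markers examined (Alb, Ttr, Apoa1, Serpina1a, Cps1 and Hnf4a) were well above background in every group. Their summed linear signal ran from 1455394 to 1506172 in LKO_Fasted, below the 1517083 to 1576309 of LWT_Fasted. All 6 Kupffer cell markers were also well above background in every group. Their summed signal reached 71023 in LKO_Fasted, where its lowest value was 15403, against at most 37100 in the other groups. The part of either cell type in the results was not tested. The Pik3ca probe had a mean log2 signal of 11.91 ± 0.21 in fed LWT against 12.54 ± 0.26 in fed LKO (SD, n = 6), a fitted difference of 0.58 (adjusted p = 0.00146, limma). Fasted LWT and LKO stood at 12.28 ± 0.14 and 12.26 ± 0.19 (SD, n = 6), so Pik3ca signal was not lower in LKO. The place of this probe relative to the floxed exons was not examined, so it does not check the labels, and LKO and LWT below mean the genotype that the labels give.

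Patatin-like phospholipases are lipid hydrolases and acyltransferases that share a catalytic fold with patatin, a storage protein of the potato, and they fall into a branch that acts on neutral lipids and a branch that acts on phospholipids. Pnpla2 encodes adipose triglyceride lipase, which starts the breakdown of the triacylglycerol in lipid droplets, and needs the co-activator encoded by Abhd5. Pnpla3, or adiponutrin, sits on lipid droplets, is known as a gene induced by feeding and insulin through SREBP1c, and is linked to fatty liver disease in humans. Pnpla5, its neighbour on chromosome 15, encodes another lipid droplet lipase, and Pnpla1 is known for making the acylceramides of the skin barrier. Pnpla6 and Pnpla7 encode lysophospholipases of the endoplasmic reticulum that release glycerophosphocholine, and Pnpla8 encodes a phospholipase A of mitochondria and peroxisomes.

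Promoters of 4 members are shown, those of the 3 that were lower in fed LKO (Pnpla3, Pnpla5 and Pnpla7) and that of the lipase gene Pnpla2, and they were chosen after the values were seen. They were taken from RefSeq promoter windows of GRCm38.p6, in which all 7 members had an entry, and run up to the base before the annotated gene start. Positions are chr7:141454938-141455187 on the plus strand for Pnpla2 (250 bases), chr15:84167566-84167775 on the plus strand for Pnpla3 (210 bases), chr15:84123176-84123425 on the minus strand for Pnpla5 (250 bases) and chr2:24975783-24975989 on the plus strand for Pnpla7 (207 bases). Each is written from 5′ to 3′, and capitals mark every match, on either strand, to 7 searched motifs, so that a match on the other strand shows its complement. Motifs of feeding-related factors were the E-box CACGTG, the FOXO motif GTAAACA, the sterol regulatory element TCACNCCAC, the nuclear receptor motif AGGTCA and the cAMP response motif TGACG. General promoter motifs were the CCAAT box and the GC box GGGCGG.
Pnpla3: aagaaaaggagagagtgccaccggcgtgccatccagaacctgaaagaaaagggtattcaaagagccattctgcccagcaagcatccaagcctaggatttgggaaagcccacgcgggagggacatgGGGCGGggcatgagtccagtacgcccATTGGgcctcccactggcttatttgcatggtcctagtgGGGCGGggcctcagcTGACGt
Pnpla5: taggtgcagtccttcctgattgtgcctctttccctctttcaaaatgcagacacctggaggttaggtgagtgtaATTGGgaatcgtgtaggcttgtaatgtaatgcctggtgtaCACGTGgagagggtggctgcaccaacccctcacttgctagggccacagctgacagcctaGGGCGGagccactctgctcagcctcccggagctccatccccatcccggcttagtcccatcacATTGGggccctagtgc
Pnpla2: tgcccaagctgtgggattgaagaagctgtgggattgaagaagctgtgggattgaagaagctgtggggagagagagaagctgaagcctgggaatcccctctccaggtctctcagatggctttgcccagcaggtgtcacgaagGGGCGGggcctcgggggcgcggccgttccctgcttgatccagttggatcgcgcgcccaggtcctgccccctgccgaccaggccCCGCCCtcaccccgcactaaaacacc
Pnpla7: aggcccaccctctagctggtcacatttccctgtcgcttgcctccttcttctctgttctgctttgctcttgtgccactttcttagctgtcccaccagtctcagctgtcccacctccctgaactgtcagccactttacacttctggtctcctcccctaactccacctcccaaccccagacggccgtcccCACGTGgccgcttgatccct

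The Pnpla3 stretch held 1 CCAAT match, 2 GC boxes and 1 TGACG match near its end. Of the 32851 promoter windows of the same length in the table, 29.9% held CCAAT, 26.7% held GGGCGG and 14% held TGACG, so these matches are common ones. The Pnpla5 stretch held 1 CACGTG, 2 CCAAT matches and 1 GC box, against 6.02%, 33.8% and 32.7% of windows of its length. CACGTG also occurred once in the Pnpla7 stretch, against 4.55% of windows of that length, and it was not found in the printed stretches of Pnpla2 and Pnpla3. The Pnpla2 stretch held 2 GC boxes and no match to the other motifs. GTAAACA, TCACNCCAC and AGGTCA were not found in any of the 4 stretches, which says only that these letters are absent there. Matches are descriptions of letters, not binding sites.

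In LWT livers, fasting raised 2 of the 7 members and lowered 4, at an adjusted p of at most 0.05 from limma, with the p-values adjusted by the method of Benjamini and Hochberg over all probes. Over all genes tested, 19.9% were called higher and 21.7% lower in this comparison. For 6 members the ranges of fed and fasted mice were separate, as they were for 21.6% of all genes. In LKO livers 3 members rose and 4 fell with fasting, where 19.7% of all genes were called higher and 21.9% lower, and 6 members had separate ranges, against 22.1% of genes. Pnpla1 was the member not called in LWT. All 7 members passed the filter on low signals, which asked for signal well above background on at least 5 arrays of at least 1 group, but Pnpla3 and Pnpla5 passed through their fed groups, so their calls are not counted as support for a pattern of the family. Signals are normalized log2 intensities, and since each probe binds with its own strength, levels are not compared between genes. A lower signal in whole liver can come from fewer cells of a type or from less RNA per cell, and these cannot be told apart.

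**Figure D1:**
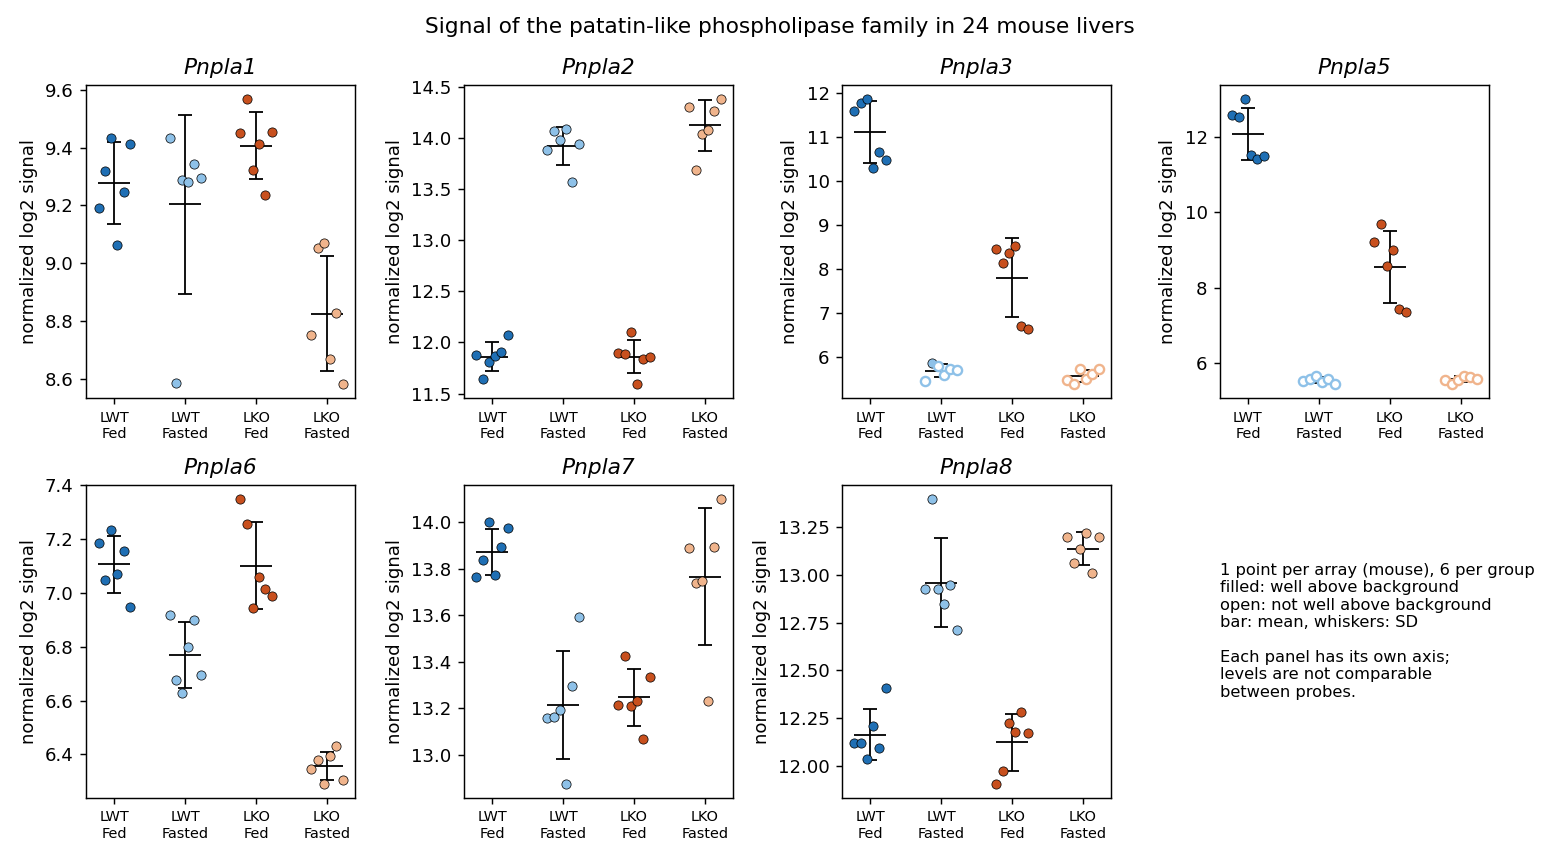
Normalized log2 signal (y axis) of the 7 members in each array, by group (x axis, 6 mice each), with bars for the mean and whiskers for the SD; open points were not well above background. Fasted arrays lay above fed ones for Pnpla2 and Pnpla8, below them for Pnpla3 and Pnpla5, and for Pnpla7 below in LWT but mostly above in LKO.

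Pnpla3 and Pnpla5 fell with fasting in both genotypes and were lower in fed LKO than in fed LWT. The Pnpla3 probe (chromosome 15, 84019823 to 84019882 of mm9, the build of the array files) read from 10.29 to 11.87 in LWT_Fed, with a median of 11.13. In LKO_Fed it read from 6.63 to 8.54, with a median of 8.25. In LWT_Fasted the range was 5.46 to 5.86 around a median of 5.72, and in LKO_Fasted 5.39 to 5.73 around 5.56. The fed groups thus lay apart from each other and above both fasted groups, which overlapped. The probe was well above background on all 12 fed arrays, on 1 of the 6 LWT_Fasted arrays and on none of the 6 LKO_Fasted arrays, so the fasted signals are close to the limit of the measurement. Fasting lowered Pnpla3 in LWT (adjusted p = 1.85e-11, limma), and the fitted log2 difference of -5.29 (SE 0.300) is a value against a group mostly at background, which ran from -7.41 to -2.88 over the other settings. In LKO the fasted mean was 4.46-fold below the fed mean, with each fasted array set at the dimmest signal that counted as measured on it. The fitted difference there was -2.39 (SE 0.332, adjusted p = 4.76e-06, limma), and it ran from -4.50 to -0.94 over the other settings.

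In the fed state Pnpla3 was 8.19-fold lower in LKO than in LWT, a log2 difference of -3.03 (SE 0.307, adjusted p = 2.65e-06, limma). In the fasted state the difference was -0.13, with a 95% interval from -0.81 to 0.54 (adjusted p = 0.823, limma), and since both groups were near background no difference could be measured there. The fitted interaction of 2.90 (limma) is no independent measure, since 11 of the 12 fasted arrays were not well above background and it repeats the fed genotype difference with the sign turned. On slides 1, 2 and 3 taken singly, the fed genotype difference was -3.88, -4.11 and -1.94, lower in LKO each time.

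Pnpla5 followed the same order of groups. Its probe (chromosome 15, 83942786 to 83942844 of mm9, minus strand) read from 11.41 to 13.00 in LWT_Fed around a median of 12.02, and from 7.37 to 9.69 in LKO_Fed around 8.79. It read from 5.45 to 5.66 in LWT_Fasted and from 5.45 to 5.66 in LKO_Fasted, with medians of 5.55 and 5.56. No fasted array was well above background, whereas all fed arrays were. As a bound, each fasted array was set at the dimmest signal that counted as measured on it. Against that bound the mean of the fed arrays was 88.2-fold higher in LWT and 7.48-fold higher in LKO. It holds for this probe and this normalization only, and the other Pnpla5 probe gave fitted folds of 10.9 and 2.04. The fitted log2 differences were -6.38 in LWT (SE 0.297, adjusted p = 9.31e-13, limma) and -3.12 in LKO (SE 0.329, adjusted p = 1.04e-07, limma). The bound and the fit differ because the bound uses plain means and the fit weights the arrays and includes the slide.

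Among fed mice Pnpla5 was 9.77-fold lower in LKO, a log2 difference of -3.29 (SE 0.304, adjusted p = 9.26e-07, limma), and no LKO_Fed array reached the lowest LWT_Fed array. Singly, slides 1, 2 and 3 gave -3.67, -4.22 and -2.72. The fitted interaction of 3.26 (limma) repeats that difference with the sign turned, since all 12 fasted arrays were at background. The other Pnpla5 probe, well above background on all 24 arrays, gave an interaction of 2.42 (adjusted p = 0.000337, limma). Its genotype differences were -2.55 fed and -0.13 fasted, so that interaction too mainly repeats the fed difference. No fold is given for the chosen Pnpla5 probe between the fasted groups, since neither was well above background on any array.

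Values of single fed mice were set side by side for Pnpla3 and Pnpla5, and their correlation did not pass the adjusted threshold in either genotype. In LWT_Fed, replicates 1, 2 and 3 read 11.61, 11.78 and 11.87 for Pnpla3 and 12.58, 12.51 and 13.00 for Pnpla5. Replicates 4, 5 and 6 were lower, at 10.29, 10.66 and 10.49 for Pnpla3 and 11.52, 11.41 and 11.50 for Pnpla5. The same 3 mice were therefore the higher ones for both genes, with a gap between the 2 sets of 3. In LKO_Fed, replicates 5 and 6 were the 2 lowest for both genes, at 6.71 and 6.63 for Pnpla3 and at 7.43 and 7.37 for Pnpla5. Across the 6 LWT_Fed arrays Pearson's r was 0.960 (exact permutation p = 0.0361, adjusted p = 0.0542 over the 2 groups) and Spearman's rho was 0.714 (exact permutation p = 0.136, adjusted p = 0.242), and without the 2 arrays farthest from the median r was 0.975. Across the 6 LKO_Fed arrays r was 0.885 (exact permutation p = 0.0542, adjusted p = 0.0542) and rho was 0.6 (exact permutation p = 0.242, adjusted p = 0.242), but without the 2 farthest arrays r was -0.58, so that relation rests on those arrays. Both genes of a pair were read on the same arrays, and in LWT_Fed the 2 arrays of slide 2 were among the higher ones and the 2 arrays of slide 3 among the lower ones, so mouse and slide are mixed in this relation. The part of the slide in it was not tested.

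For both fasting changes and for the fed genotype difference, the other probes of Pnpla3 and Pnpla5 gave the same directions with smaller sizes. For Pnpla3, the other probe (chromosome 15, 84016440 to 84016499 of mm9) gave -2.06 for LKO against LWT in the fed state, where all arrays were well above background. Its fitted fasting differences of -2.88 in LWT and -0.94 in LKO are set against fasted groups in which 2 of 6 and 1 of 6 arrays were well above background, so their sizes are limited by the background. For Pnpla5, the other probe (83943118 to 83943177) was well above background on all 24 arrays and gave -2.55 for the fed genotype difference, -3.45 with fasting in LWT and -1.03 with fasting in LKO. All 6 of these differences were called, with adjusted p from 0.0046 down to 2.9e-10 (limma). The other Pnpla5 probe was measured in the fasted arrays too, with means of 6.23 ± 0.10 for fasted LWT and 6.16 ± 0.11 for fasted LKO (SD, n = 6). The fitted difference there was -0.13 (SE 0.260, adjusted p = 0.774, limma) and was not called. That SE is shared with the fed arrays, whose SDs were 0.78 in LWT and 0.54 in LKO, so a small fasted difference could go uncalled. Between probes of different members, the longest shared run was 8 bases of a probe's 60, and between Pnpla3 and Pnpla5 it was 6 bases.

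**Figure D2:**
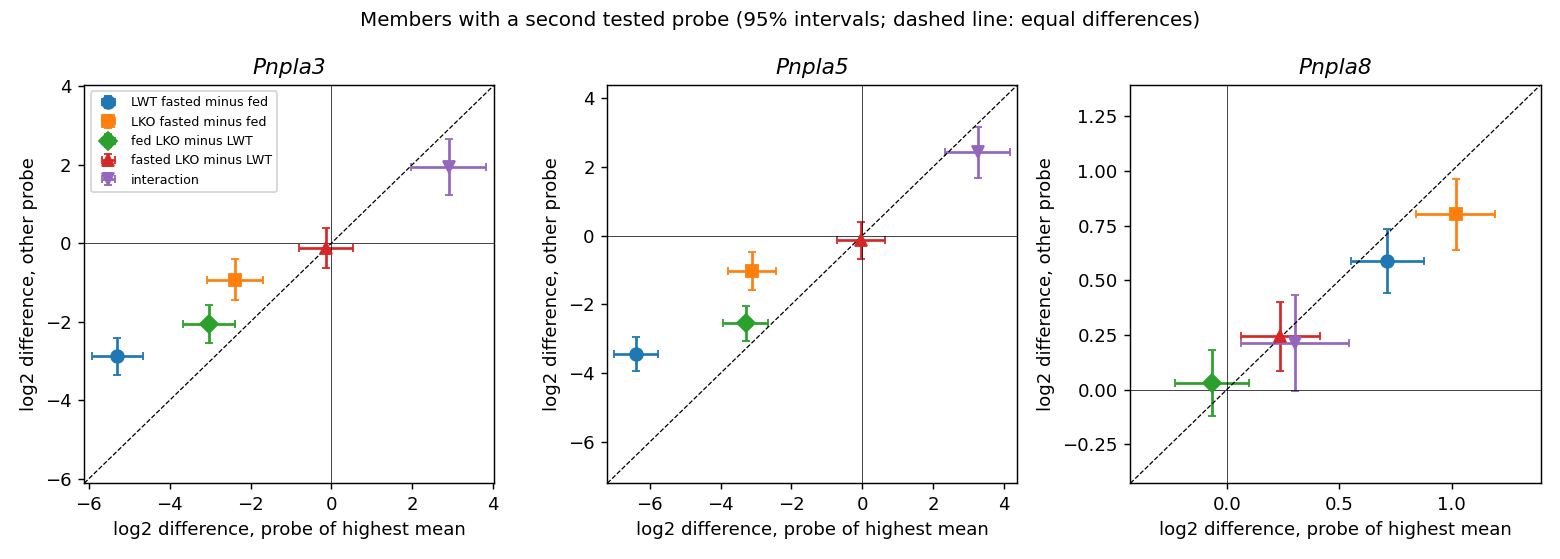
Log2 differences by the probe of highest mean (x axis) and by the other tested probe (y axis) of Pnpla3, Pnpla5 and Pnpla8, with 95% intervals and a dashed line of equal differences. For Pnpla3 and Pnpla5 all points other than the fasted genotype difference lie between the dashed line and 0 on the y axis, as with -2.06 against -3.03 for Pnpla3 in fed LKO against fed LWT.

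Genes around the pair were read from a list of all genes with a probe within 250 kb of either. Besides the pair itself there were 7, of which 5 were tested (LOC102641965, Sult4a1, Samm50, Parvb and Parvg). Sult4a1, a sulfotransferase gene whose probe lies at -113 kb from that of Pnpla3, fell with fasting, with log2 differences of -0.75 in LWT (SE 0.159, adjusted p = 0.000616, limma) and -0.59 in LKO (SE 0.176, adjusted p = 0.0101, limma). Samm50, which encodes part of the sorting machinery of the outer mitochondrial membrane and lies at 14.7 kb, had differences of -0.22 in LWT (adjusted p = 0.0235, limma), 0.24 in LKO (adjusted p = 0.0261, limma), and was lower in fed LKO than in fed LWT by a log2 difference of -0.40 (SE 0.077, adjusted p = 0.00142, limma). LOC102641965, Parvb and Parvg were not called in any of the comparisons, and their fitted fasting changes ran from -0.16 to 0.12. For Parvb the fitted difference of LKO from LWT was -0.71 fed (95% interval from -1.28 to -0.14, adjusted p = 0.0830, limma) and -0.63 fasted (adjusted p = 0.135, limma). The neighbours called in the same direction as Pnpla3 and Pnpla5 thus had differences under 1 log2 unit.

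**Figure D3:**
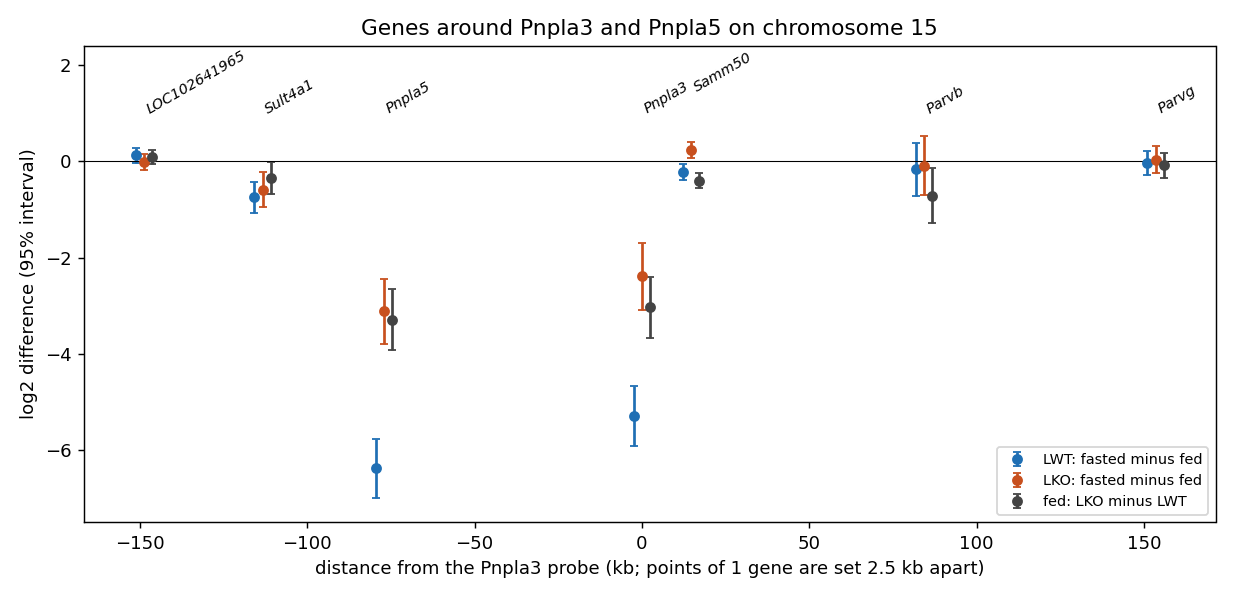
Log2 difference with its 95% interval (y axis) for each tested gene against the distance of its probe from that of Pnpla3 (x axis, kb), with 3 comparisons in colours. Pnpla5, at -77.0 kb, and Pnpla3 reach fitted values of -6.38 and -5.29 with fasting in LWT, set against fasted groups at or near background (the Pnpla5 probe measured on all arrays gave -3.45), and the other genes lie between -0.75 and 0.24.

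Pnpla2, the lipase of lipid droplets, rose with fasting in both genotypes. Its single probe (chromosome 7, 148645928 to 148645987 of mm9) read from 11.64 to 12.07 in LWT_Fed, median 11.87, and from 13.57 to 14.09 in LWT_Fasted, median 13.96. In LKO it read from 11.60 to 12.10 fed, median 11.87, and from 13.69 to 14.38 fasted, median 14.17. Fed and fasted arrays did not overlap in either genotype, and the fed groups covered nearly the same range. The rise was 4.09-fold in LWT (log2 difference 2.03, SE 0.108, adjusted p = 7.06e-12, limma) and 4.85-fold in LKO (2.28, SE 0.119, adjusted p = 3.20e-12, limma). LKO and LWT differed in the fed state by -0.01, with a 95% interval from -0.23 to 0.22, and in the fasted state by 0.24, with an interval from -0.004 to 0.48 (adjusted p = 0.985 and 0.163, limma). Neither was called, and the interval of the interaction ran from -0.09 to 0.58 around 0.24 (adjusted p = 0.388, limma). The fasted difference was called without LKO_Fasted replicate 2, at 0.33 (adjusted p = 0.0410, limma), and over leaving out each array its adjusted p reached 0.398.

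Pnpla8 rose as well. Its probe (chromosome 12, 45412990 to 45413049 of mm9) had medians of 12.12 in LWT_Fed and 12.18 in LKO_Fed, with ranges of 12.03 to 12.41 and 11.91 to 12.28. Fasted medians were 12.93 in LWT, range 12.71 to 13.40, and 13.17 in LKO, range 13.01 to 13.22. Fed and fasted groups did not overlap in either genotype. Fasting raised it 1.64-fold in LWT (0.71, SE 0.0774, adjusted p = 1.93e-07, limma) and 2.02-fold in LKO (1.02, SE 0.0856, adjusted p = 3.76e-09, limma), and the other probe gave 0.59 and 0.80, both called. Fasted LKO was higher than fasted LWT by 0.24 (SE 0.0841, adjusted p = 0.0490, limma). That call lies at the threshold and was lost in 19 of the 24 fits that left out 1 array, with adjusted p from 0.00586 to 0.153, and the 2 groups overlapped. The other probe gave the same difference of 0.24, called at an adjusted p of 0.0278 (limma). Without LKO_Fasted replicates 1 and 2 together, a setting chosen after seeing the data, the chosen probe gave 0.24 and was not called (adjusted p = 0.109, limma). In the fed state the difference was -0.06, with a 95% interval from -0.23 to 0.10.

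Pnpla7 was the member whose fasting change had opposite directions in LWT and LKO. Its probe (chromosome 2, 24908961 to 24909192 of mm9, a span longer than the 60 bases of the probe) read from 13.76 to 14.00 in LWT_Fed, median 13.86, and from 12.88 to 13.59 in LWT_Fasted, median 13.18. In LKO_Fed it read from 13.07 to 13.42, median 13.22, and in LKO_Fasted from 13.23 to 14.10, median 13.82. LWT_Fed lay wholly above LWT_Fasted and above LKO_Fed. Of the 6 LKO_Fasted arrays, 5 lay above all LKO_Fed and LWT_Fasted arrays, and replicate 4, at 13.23, lay within both ranges. Fasting lowered Pnpla7 in LWT, by a log2 difference of -0.62 (SE 0.102, adjusted p = 4.32e-05, limma), and raised it by 0.59 in LKO (SE 0.113, adjusted p = 0.000214, limma), folds of 1.54 and 1.51.

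The interaction of Pnpla7 was 1.21 log2 units (SE 0.153, 95% interval from 0.90 to 1.53, adjusted p = 8.68e-05, limma). LKO was lower than LWT in the fed state by a log2 difference of -0.61 (SE 0.105, adjusted p = 0.000519, limma) and higher in the fasted state by 0.60 (SE 0.111, adjusted p = 0.000561, limma). On slides 1, 2 and 3 taken singly the fasting change was -0.57, -0.62 and -0.79 in LWT and 0.10, 0.68 and 0.77 in LKO. The value for LKO on slide 1, which carried replicate 4, was not called (adjusted p = 0.833, limma), with 2 arrays a group. The directions held on every slide.

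Pnpla6, the close relative of Pnpla7, fell with fasting in both genotypes. Its probe (chromosome 8, 3537312 to 3537456 of mm9) had a median of 7.11 in LWT_Fed, range 6.95 to 7.23, and of 6.75 in LWT_Fasted, range 6.63 to 6.92. In LKO the median was 7.04 fed, range 6.94 to 7.35, and 6.36 fasted, range 6.29 to 6.43. LKO_Fasted lay below every array of the other groups. The log2 difference was -0.32 in LWT (SE 0.0712, adjusted p = 0.000948, limma) and -0.76 in LKO (SE 0.0787, adjusted p = 8.08e-08, limma), folds of 1.25 and 1.69. The interaction was -0.44 (SE 0.106, adjusted p = 0.0145, limma), LKO was lower than LWT in the fasted state by a log2 difference of -0.43 (SE 0.0773, adjusted p = 0.000475, limma), and in the fed state the difference was 0.01 with a 95% interval from -0.14 to 0.16. With the scanner's processed signal the same calls held at larger sizes, -1.23 with fasting in LKO, -0.73 between fasted genotypes and -0.82 for the interaction.

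Pnpla1 was read by a probe (chromosome 17, 29026908 to 29026967 of mm9) that was well above background on all 24 arrays, while its other probe (29022537 to 29023795) was not well above background on any array and was not tested. The values of the former are therefore uncertain as a measure of the Pnpla1 mRNA. They ran from 9.06 to 9.43 in LWT_Fed, median 9.28, from 8.59 to 9.43 in LWT_Fasted, median 9.29, from 9.24 to 9.57 in LKO_Fed, median 9.43, and from 8.58 to 9.07 in LKO_Fasted, median 8.79. LKO_Fasted lay below LKO_Fed and overlapped with LWT_Fasted through replicate 2 of the latter. Fasting gave 0.03 in LWT, with a 95% interval from -0.17 to 0.23, and a log2 difference of -0.56 in LKO (SE 0.105, adjusted p = 0.000181, limma), and the interaction was -0.59 (SE 0.142, adjusted p = 0.0141, limma). That interaction was not called without array weights, at -0.51 (adjusted p = 0.0735, limma), or without the filter on low signals, at -0.57 (adjusted p = 0.0508, limma). LKO was lower than LWT in the fasted state by a log2 difference of -0.43 (SE 0.104, adjusted p = 0.00548, limma), and in the fed state the difference was 0.17 with an interval from -0.04 to 0.37. Of 6 keratinocyte markers, 2 to 5 were well above background on at least 5 arrays of each group. Dsg3 was not well above background on any of the 24 arrays. The summed linear signal of the 6 markers ran from 898 to 1026 in fed and 1263 to 1487 in fasted LWT, and 890 to 1192 in fed and 1144 to 1799 in fasted LKO. Their part in the Pnpla1 signal was not tested.

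**Figure D4:**
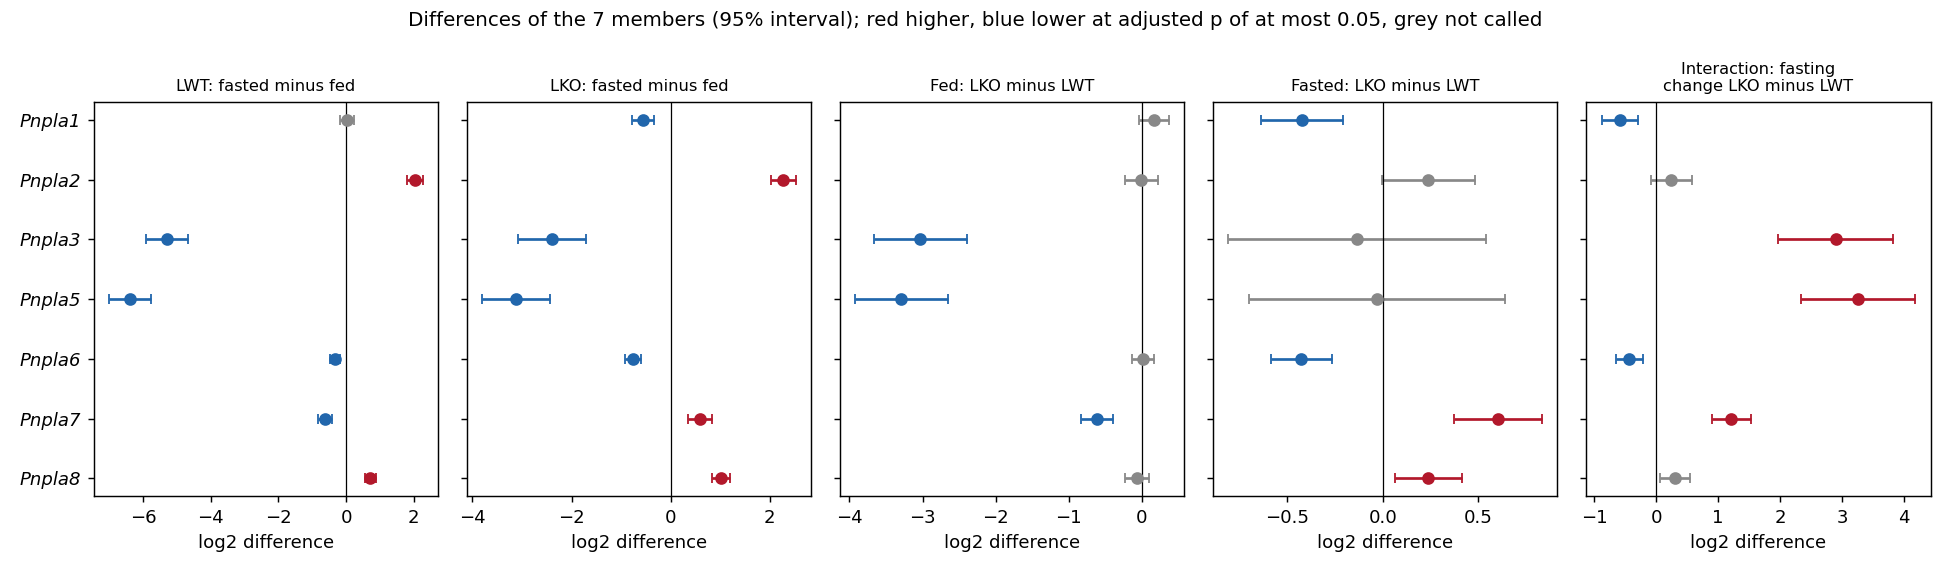
Log2 difference and 95% interval (x axis, a scale of its own in each panel) of the 7 members (y axis) in the 4 comparisons and the interaction, red where higher and blue where lower at an adjusted p of at most 0.05. Pnpla7 is blue at -0.62 in LWT and red at 0.59 in LKO.

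Between genotypes, 3 of the 7 members were lower in LKO in the fed state (Pnpla3, Pnpla5 and Pnpla7) and none was higher, where 8.80% of all genes were called higher and 7.60% lower. These 3 did not overlap between the groups, against 8.64% of all genes. For the other 4 (Pnpla1, Pnpla2, Pnpla6 and Pnpla8) the fitted fed differences lay between -0.06 and 0.17. In the fasted state 2 members were higher in LKO (Pnpla7 and Pnpla8) and 2 lower (Pnpla1 and Pnpla6), against 10.0% and 10.6% of all genes, and 1 member, Pnpla6, did not overlap, against 8.70% of genes. Among the 5 members well above background in all groups, the interaction was called for 1 with a higher fasting change in LKO (Pnpla7) and 2 with a lower one (Pnpla1 and Pnpla6), where 4.12% and 3.87% of all genes were called. The calls for the chosen probes of Pnpla3 and Pnpla5 are left out of this count, since their fasted groups lay at or near background. The other Pnpla5 probe, measured in all groups, had a called interaction of 2.42 (adjusted p = 0.000337, limma). With genotype differences of -2.55 fed and -0.13 fasted, it too mainly repeats the fed difference. Comparisons share groups, so these counts are not independent of each other.

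Other genes of neutral lipid breakdown were read from a list of 16, all of them tested. In LWT, 9 rose and 2 fell with fasting, with a median log2 difference of 0.45 beside -0.01 over all genes, and in LKO 10 rose and 4 fell, with a median of 0.54 beside -0.02. Of all genes, 19.9% rose and 21.7% fell in LWT and 19.7% rose and 21.9% fell in LKO, so the share of the list that fell was not above that of all genes in LWT and was near it in LKO. In fed LKO against fed LWT none was higher and 8 were lower, where 8.80% and 7.60% of all genes were called, with a median of -0.32 beside -0.01. Plin5, the droplet protein that binds adipose triglyceride lipase, rose by 1.99 in LWT (SE 0.080, adjusted p = 1.18e-13, limma) and by 2.04 in LKO (SE 0.088, adjusted p = 2.24e-13, limma), close in size to the rise of Pnpla2. The lipase inhibitors G0s2 and Hilpda rose with fasting in both genotypes, and Faf2, which is also known to restrain the lipase, gave 0.09 in LWT (adjusted p = 0.148, limma) and rose by 0.23 in LKO (adjusted p = 0.00131, limma). G0s2 rose by 2.06 in LWT and 3.62 in LKO (adjusted p = 5.33e-06 and 6.34e-09, limma), and Hilpda by 0.63 and 2.39 (adjusted p = 0.0376 and 2.00e-07, limma).

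The co-activator gene Abhd5 fell with fasting, with log2 differences of -0.79 in LWT (SE 0.090, adjusted p = 3.90e-07, limma) and -0.55 in LKO (SE 0.0996, adjusted p = 0.000126, limma). Its means were 10.47 ± 0.15 and 9.68 ± 0.10 in fed and fasted LWT, and in LKO they were 10.06 ± 0.29 when fed and 9.55 ± 0.10 after fasting (SD, n = 6 each). The downstream lipases Lipe and Mgll, which cleave diacylglycerol and monoacylglycerol, rose by 0.47 and 0.57 in LWT and by 0.61 and 1.22 in LKO, all called. Plin2, a coat protein of lipid droplets, rose by 1.57 in LWT and 2.83 in LKO, with an interaction of 1.26 (SE 0.182, adjusted p = 0.000289, limma). The carboxylesterase gene Ces1g did not pass in LWT, at -0.10 (adjusted p = 0.618, limma), and fell in LKO, at -1.14 (adjusted p = 7.63e-06, limma).

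**Figure D5:**
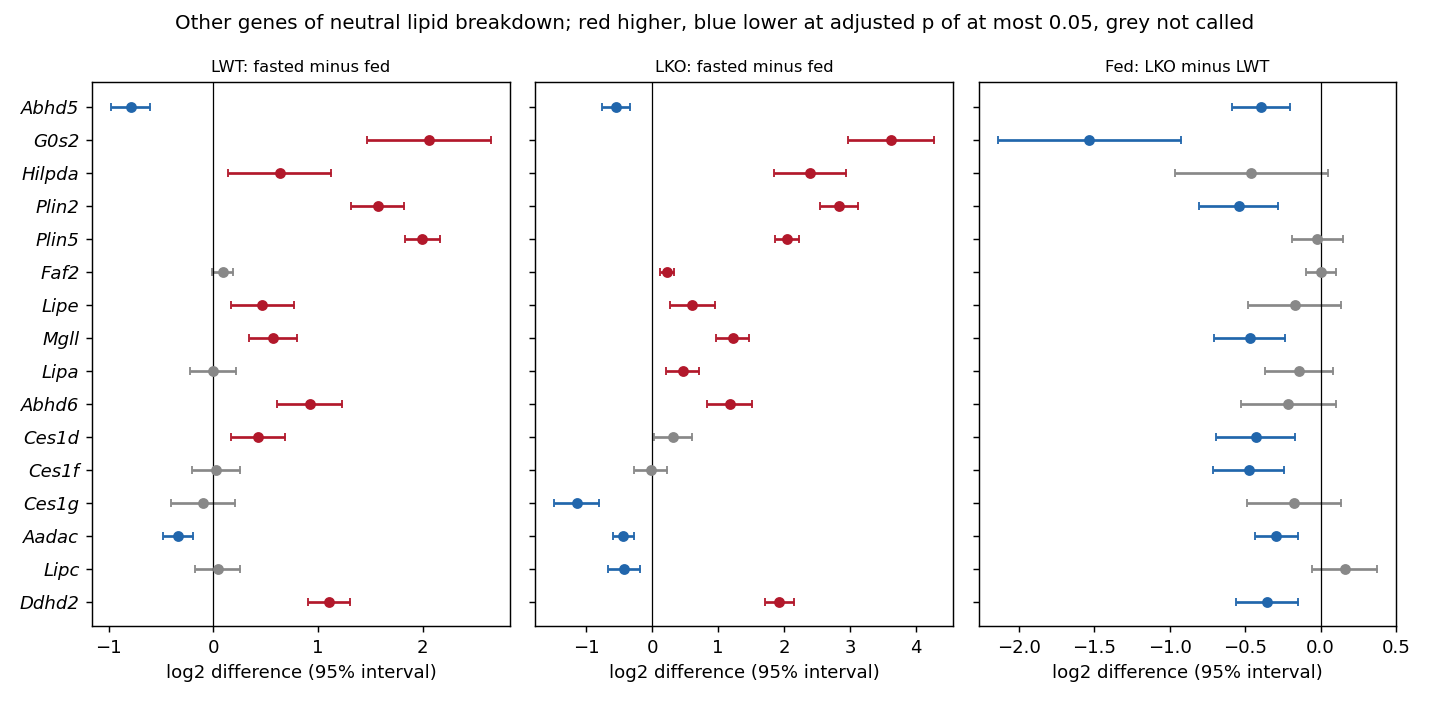
Log2 difference and 95% interval (x axis) of 16 other genes of neutral lipid breakdown (y axis) with fasting in LWT, with fasting in LKO and for LKO against LWT in the fed state, red where higher and blue where lower at an adjusted p of at most 0.05. Plin5, G0s2, Plin2 and Ddhd2 are higher and Abhd5 and Aadac lower with fasting in both genotypes.

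Genes of phospholipid and lysophospholipid turnover, the field of Pnpla6, Pnpla7 and Pnpla8, were read from a list of 17, all tested. Fasting raised 5 and lowered 5 in LWT and raised 6 and lowered 4 in LKO, and in the fed state 1 was higher and 3 were lower in LKO than in LWT. Of all genes 19.9% rose and 21.7% fell in LWT, 19.7% and 21.9% in LKO, and 8.80% were higher and 7.60% lower in fed LKO, so several of these counts are near the share of all genes. Gpcpd1, a phosphodiesterase that cleaves the glycerophosphocholine made by lysophospholipases of the Pnpla6 and Pnpla7 kind, rose by 2.46 in LWT (SE 0.194, adjusted p = 1.95e-09, limma) and 1.95 in LKO (SE 0.214, adjusted p = 1.87e-07, limma). It was also the member of this list that was higher in fed LKO than in fed LWT, by 1.36 (SE 0.198, adjusted p = 0.000147, limma). Pla2g6, which encodes a calcium-independent phospholipase A related to Pnpla8, rose by 0.54 in LWT and by 0.83 in LKO (adjusted p = 0.00248 and 0.000108, limma). Chkb, a choline kinase gene, rose by 1.13 and 1.57 (adjusted p = 1.14e-10 and 2.84e-12, limma) and was the gene of this list with a called interaction, 0.43 (SE 0.110, adjusted p = 0.0189, limma).

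The genes most like 3 of the members were named by the smallest root mean square difference of centred log2 signals over the 24 arrays, among 21365 genes other than the members. For Pnpla2 they were Plin5 at 0.192, a transcript without a gene symbol in the files at 0.258 and Grpel2, a mitochondrial co-chaperone gene, at 0.262. For Pnpla3 they were Chrna4 at 0.674, Fasn, the fatty acid synthase gene, at 0.895 and Slc2a4 at 0.960. For Pnpla5 they were Chrna4 at 1.02, Fasn at 1.17 and Aqp8 at 1.32. The same measure between Pnpla3 and Pnpla5 was 0.531. For both genes it is taken partly over fasted arrays at background, all 12 for Pnpla5 and 11 of 12 for Pnpla3, so these likenesses rest mainly on the fed arrays and on the step to background. Pnpla2 and Pnpla3 are also genes of adipose tissue. Of 7 adipocyte markers, 4 to 6 were well above background on at least 5 arrays of each group, with summed linear signals of 2708 to 3542 in fed and 2014 to 7693 in fasted LWT, and 2459 to 3077 in fed and 2949 to 5159 in fasted LKO, and the defining marker Adipoq was well above background on 2, 3, 2 and 4 of the 6 arrays of these groups in turn. The part of adipose tissue in the signals of Pnpla2 and Pnpla3 was not tested.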

How the data were processed

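Liver RNA of 24 male mice was hybridised to single-colour Agilent mouse arrays, 2 arrays of each group on each of 3 slides. As deposited, the scanner files hold spot intensity values that Agilent Feature Extraction 10.10.1.1 (per the submitters' processing notes) made from the scanned images, with coordinates on mm9. The authors also deposited a table of normalized log2 values, used here only as an alternative.

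The median signal intensity was taken to log2 and quantile normalized, control spots were left out, and 32197 of 56605 probes were kept, those well above background on at least 5 of 6 arrays of at least 1 group. A linear model (limma 3.58.1 in R 4.3.3) held 4 group means, the slide and array weights. Benjamini-Hochberg adjustment ran over all probes kept, the threshold for a call was an adjusted p of 0.05, and the fit was tested on simulated data. The p-values measure the spread between these samples. No columns of other samples were used (0).

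Named genes were all 7 members, by the probe with the highest mean, and lists of 16 genes of neutral lipid breakdown, 17 of phospholipid turnover and 8 regulators, besides neighbours and the 3 genes most like a member. The members and lists were chosen with earlier results of these data known. Marker lists covered hepatocytes, adipocytes, keratinocytes and other cells. Bounds ("at least") set dim arrays at the lowest signal that was well above background. Alternatives changed the background correction, scaling, filter, weights, slide term, probe, groups fitted and arrays.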

Additional observations from a re-analysis of the deposited data

Results flagged for a closer look

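Among 28 sets of 6 arrays (7 members in 4 groups), 2 held an array whose gap to its nearest neighbour, as a share of the whole range, was above Dixon's 95% critical value for 6 arrays, and chance gives about 1 in 20. Pnpla1 in LWT_Fasted replicate 2 read 8.59, below the other 5 arrays, with a share of 0.82. Pnpla8 in the same replicate read 13.40, above the other 5, with a share of 0.654.

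By the interaction test of limma, which called 4.12% of all genes higher and 3.87% lower, the log2 response to fasting differed between LKO and LWT (LKO less LWT) by -0.59 for Pnpla1, -0.44 for Pnpla6 and 1.21 for Pnpla7. The chosen probes of Pnpla3 and Pnpla5 gave 2.90 and 3.26. These values rest on fasted groups at background on 11 and 12 of 12 arrays, so they repeat the fed genotype difference with the sign turned. The other Pnpla5 probe, well above background on all 24 arrays, gave a called interaction of 2.42 (adjusted p = 0.000337, limma). With genotype differences of -2.55 fed and -0.13 fasted, it too mainly repeats the fed difference.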

How the results depend on the processing

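Of 35 results of members, 25 were called, and over 40 alternatives (24 of them leaving out 1 array) these gave 984 values, of which 0 turned direction and 66 were no longer called. The setting that asked for a fold over 1.5 reuses the values of the main fit. The setting with the other probe keeps the chosen one for Pnpla2, Pnpla6 and Pnpla7. Those reused values could not turn direction. Within slides 1, 2 and 3, with 2 arrays a group each, 19, 7 and 7 of the 25 calls were lost, and the cause of the larger loss on slide 1 was not tested. Members called with fasting were 3 in LWT and 3 in LKO within slide 1. For fed LKO against LWT the count was 0 within slide 1, and 1 with probes well above background on all 24 arrays, which leave out the chosen probes of Pnpla3 and Pnpla5. For fasted LKO against LWT it was 0, 1 and 2 within slides 1, 2 and 3, and 1 with a fold over 1.5. The interaction gave 0, 3 and 2 within slides and 3 with probes above background on all arrays. Leaving out each array gave 6 to 6, 7 to 7, 3 to 3, 3 to 4 and 5 to 6 members for the 5 comparisons in turn.

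Differences that turned sign were not called. Pnpla1 with fasting in LWT was -0.0736 without array weights, -0.40 within slide 1, and -0.0212 to 0.0831 leaving out arrays. In fed LKO against LWT, Pnpla2 was 0.0017 with all arrays above background, 6e-04 without weights, 0.0177 and 0.11 within slides 1 and 2, and -0.0669 to 0.0738 leaving out arrays. Pnpla6 was -0.0049 without weights, -0.0724 and -0.0065 within slides 1 and 3, and -0.0552 to 0.0498 leaving out arrays, and Pnpla8 was 0.0098 within slide 1 and 0.0315 by its other probe. In fasted LKO against LWT, Pnpla2 was -0.13 within slide 1 and Pnpla3 was 0.0422 within slide 2. Pnpla5 was 0.35 with the processed signal, 0.0179 without weights, 0.021 without the slide term, 0.0446 and 0.0168 within slides 1 and 3, 0.0117 with the compared groups alone, and -0.0612 to 0.036 leaving out arrays. No fasted array was well above background for the chosen Pnpla5 probe, and 1 was for that of Pnpla3, so these values of the pair measure no difference. The interaction of Pnpla2 was -0.14 within slide 1. The cause was not tested.

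Size depended on the setting for Pnpla3 and Pnpla5, whose fasting difference in LWT ran from -7.41 to -2.88 and from -9.45 to -3.45 and whose fasting difference in LKO ran from -4.50 to -0.94 and from -5.64 to -1.03, and for Pnpla6, whose fasting difference in LKO ran from -1.23 to -0.61, its fasted genotype difference from -0.73 to -0.35 and its interaction from -0.82 to -0.37. Without LWT_Fasted replicate 2, the Pnpla8 interaction was called, at 0.34 (adjusted p = 0.0296, limma). Replicate numbers only name the mice: over 36 pairs of the same number the median correlation was -0.02, and 0 arrays correlated best with their own number. With the replicate block and the slide, members called were 6, 7, 3, 3 and 5, and the call for Pnpla8 in fasted LKO was lost, at 0.21 (adjusted p = 0.132, limma). Without LKO_Fasted replicates 1 and 2 together, members called were also 6, 7, 3, 3 and 5, with 1 call of 25 lost (Pnpla8 in fasted LKO against LWT).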

Other observations

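Regulators known to act on these genes were read from a list of 8, all tested. Srebf1, which encodes the feeding-induced factor SREBP1c among its products, gave -2.76 with fasting in LWT (SE 0.125, adjusted p = 6.28e-13, limma) and -2.82 in LKO (SE 0.138, adjusted p = 1.38e-12, limma), and LKO was lower than LWT by a log2 difference of -0.62 fed and -0.69 fasted (adjusted p = 0.00208 and 0.00101, limma). Mlxipl, the gene of the carbohydrate response factor ChREBP, gave -0.92 in LWT and -0.81 in LKO. Insig2, which holds back SREBP processing, rose by 1.93 and 2.68. Foxo1 rose by 0.71 in LWT and gave 0.05 in LKO (adjusted p = 0.791), with an interaction of -0.67 (SE 0.165, adjusted p = 0.0166, limma). Ppara rose by 0.89 and 0.87, and Pparg was lower in fed LKO by a log2 difference of -1.02 (SE 0.263, adjusted p = 0.0107, limma). Nr1h3 was not called in any comparison. In all, 3 of the 8 rose and 2 fell with fasting in each genotype, and 3 were lower in fed LKO than in fed LWT. Of all genes 19.9% rose and 21.7% fell in LWT, 19.7% and 21.9% in LKO, and 7.60% were lower in fed LKO, so the share that fell is near that of all genes.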
